A study of Mus musculus with 6 samples.

Results

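The 7 genes described here are 6 chemokines and 1 chemokine receptor of the mouse: Ccl2, Ccl7, Ccl8, Ccl12, Ccl24, Cx3cl1 and Ccr2. They were chosen by name, as the chemokines known for drawing in monocytes and eosinophils and the receptor CCR2, and all 7 were found among the 32285 genes of each of the 6 single-cell RNA libraries. The mice carried brain tumors grown from SB28, a mouse glioma cell line, of which 10000 cells had been injected 18 days before collection. Of the 6 libraries, 2 held CD45+ leukocytes of the tumor, 2 held neutrophils sorted from blood and 2 held neutrophils sorted from tumor, both sorts with a gate for CD45+ CD11b+ cells with high LY6G and low or no LY6C. All groups share the tumor model and the day; blood was drawn by submandibular and then cardiac puncture, and the mice were perfused before the tumor was taken, so tissue and handling cannot be told apart. The labels give no strain, age or genotype and do not say whether the libraries numbered 1 and 2 came from different mice. The p-values of tumor against blood neutrophils therefore measure the spread between these libraries, which may be technical. Those between cell classes measure the spread left once the difference between the 2 libraries is taken out, which may be technical as well.

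CCL2 (MCP-1), CCL7 (MCP-3) and CCL12 (MCP-5, a rodent chemokine) are secreted ligands of CCR2, the G-protein coupled receptor that lets classical monocytes leave the bone marrow and enter inflamed tissue. CCL8 (MCP-2) in the mouse is known for acting on CCR8, CCL24 (eotaxin-2) acts on CCR3 of eosinophils, and CX3CL1 (fractalkine) is a membrane-bound ligand of CX3CR1, which microglia and patrolling monocytes carry. In gliomas the CCL2 to CCR2 route is known for bringing in monocytes that turn into tumor macrophages.

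The genes of 4 of the ligands lie side by side on chromosome 11 of mm10. In the GENCODE vM21 annotation Ccl2 (ENSMUSG00000035385) runs over chr11:82035571-82037453, Ccl7 (ENSMUSG00000035373) over chr11:82045712-82047525, Ccl12 (ENSMUSG00000035352) over chr11:82101845-82103400 and Ccl8 (ENSMUSG00000009185) over chr11:82115185-82116799, all on the plus strand. From the start of Ccl2 to the end of Ccl8 are 81229 bases with 5 protein-coding genes of this kind, the other being Ccl11. Ccl24 (ENSMUSG00000004814) is at chr5:135569937-135573049 on the minus strand, Cx3cl1 (ENSMUSG00000031778) at chr8:94772009-94782427 and Ccr2 (ENSMUSG00000049103) at chr9:124101950-124113557, both on the plus strand. A protein-coding gene model, Gm17268, overlaps Ccl2 on the opposite strand. Of the 50-base stretches of the Ccr2 transcripts 1.91% also occur in transcripts of other genes, and none of the stretches of the other 6 genes do.

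The 250 bases before the starts of Ccl12 and Ccl8 are shown because these neighbours had their highest summed level in microglia, in both CD45+ libraries for Ccl12 and, mature dendritic cells of library 1 aside, for Ccl8. They are RefSeq sequences of GRCm38.p6, the plus strand of chr11:82101595-82101844 and of chr11:82114935-82115184, printed 5′ to 3′, and the capitals mark a TATAAA match.
Ccl12: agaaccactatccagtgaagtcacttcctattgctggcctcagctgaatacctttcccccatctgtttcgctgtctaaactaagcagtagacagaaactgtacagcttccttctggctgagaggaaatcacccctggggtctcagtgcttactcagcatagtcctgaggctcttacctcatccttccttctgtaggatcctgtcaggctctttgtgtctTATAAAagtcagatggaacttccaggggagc
Ccl8: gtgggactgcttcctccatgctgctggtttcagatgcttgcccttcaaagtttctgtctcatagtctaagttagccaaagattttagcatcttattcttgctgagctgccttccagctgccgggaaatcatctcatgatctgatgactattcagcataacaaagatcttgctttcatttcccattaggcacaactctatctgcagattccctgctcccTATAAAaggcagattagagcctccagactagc
The match starts 31 bases before the start of Ccl12 and 32 bases before that of Ccl8, and 12.4% of 32851 RefSeq promoters hold TATAAA on either strand of their 250 bases. Neither sequence held any of 5 other motifs searched on both strands, which were found in 6.75% (AP-1, TGANTCA), 1.41% (NF-kB), 7.02% (GAS, TTCNNNGAA), 5.85% (STAT6) and 2.44% (PU.1, GAGGAAGT) of the promoters. A match or its lack describes these letters in this window only. The windows of Ccr2 and Cx3cl1 overlap annotated exons and are not printed; Ccl2, Ccl7 and Ccl24 are named only.

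The libraries held 3121 to 9418 cell barcodes and 13945799 to 129422458 UMIs, the molecules counted after removal of duplicate reads. CD45+ library 2 was deeper than library 1, with a median of 11129 against 6335 UMIs per cell. CD45+ library 1 and sorted tumor library 2 had 162 barcodes in common, against 3 to 35 for every other pair of libraries; the copy with fewer UMIs was removed for 161 of them (150 cells, 1.60%, of CD45+ library 1), and with these kept the calls on members numbered the same, 3, 45 and 3 in the comparisons that follow. Cells were put into classes by the share of their UMIs from marker genes, none of them a member, and a class is a range of marker content named for its markers, monocyte-like or macrophage-like rather than a proven type. Between 11.3% and 24.2% of the cells of the monocyte, macrophage and microglia classes lay within 20% of a cut. Classes also carried each other's markers: the median microglia had 2.50% and 3.12% of UMIs from C1q macrophage markers in libraries 1 and 2, and the median classical monocyte 0.367% and 0.731%. Neutrophils were cells with S100a8 and S100a9 at 0.5% of UMIs or more.

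Among the phagocyte classes of the tumor, Ccl2, which attracts CCR2-bearing monocytes, was highest in the classical monocytes themselves. Their summed level was 386 CPM (UMIs of the gene per 1000000 UMIs of the class) in library 1 and 1266 CPM in library 2. Microglia had 201 and 804, C1q macrophages 220 and 667, Mmp12 macrophages 186 and 388, and Arg1 macrophages 146 and 432. Dendritic cells were low, from 7.57 in mature dendritic cells of library 1 to 114 in Mgl2 dendritic cells of library 2. In each library classical monocytes stood above every other phagocyte class, but the order of microglia and C1q macrophages changed between libraries, and so did that of Mmp12 and Arg1 macrophages. When cells were clustered in place of being cut by markers, the cluster with the most Ccl2, at 516 and 1736 CPM, was one whose largest class was C1q macrophages (50.7% of its cells), and the monocyte clusters followed at 431 and 1111 and at 463 and 1312. With clusters summed by their largest class, the difference from the other phagocyte classes was 3.50 for monocytes (adjusted p = 1.7e-12) and 2.63 for C1q macrophages (adjusted p = 2.3e-10). The clusters were not corrected for library and split unevenly between the libraries. Library 1 gave 184 of the 886 cells of the cluster with the most Ccl2, and 1467 of 1645 in another C1q macrophage cluster. Such sums thus drew on different clusters in the 2 libraries. The monocyte level exceeded the mean of the other 7 phagocyte classes by 2.61 ± 0.17 on the log2 scale (SE, 2 libraries; adjusted p = 4.24e-10, edgeR's quasi-likelihood test with Benjamini-Hochberg adjustment over 13631 genes). Ccl2 was also higher than that mean in C1q macrophages (1.52 ± 0.18, adjusted p = 1.58e-06) and microglia (1.52 ± 0.18, adjusted p = 1.14e-06). It was lowest in mature dendritic cells (-4.03 ± 0.40, adjusted p = 7.3e-08). In such sums, fewer cells of a kind that make the RNA and less RNA per cell cannot be told apart.

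The difference between the CD45+ libraries was larger for Ccl2 than for its receptor. Ccl2 was higher in library 2 in 9 of 9 classes with enough counts, by a median ratio of 2.95, whereas the median ratio for Ccr2 was 1.01 and that for Ccl24, higher in 1 of 7 classes, was 0.503. No test separates these ratios, since each is 1 library against 1.

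The share of cells with a Ccl2 UMI depended on depth. With every cell thinned to 1000 UMIs, 19.0% and 37.7% of classical monocytes held one, against 15.4% and 29.7% of C1q macrophages and 11.9% and 34.7% of microglia. Without thinning the shares in monocytes were 44.2% and 62.4% (median 5842 and 8827 UMIs), those in C1q macrophages 45.5% and 66.9% (median 10371 and 16263 UMIs) and those in microglia 43.9% and 72.4% (median 7517 and 12190 UMIs), so that monocytes, first in both libraries after thinning, led in neither. B cells, which are not known to make Ccl2, held none after thinning in 179 and 46 cells, which allows shares up to 1.68% and 6.52% (median 2127 and 3383 UMIs). T or NK cells held one in 3.22% and 4.85%.

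Ccl7, the next ligand of CCR2, was highest in classical monocytes and C1q macrophages. It stood at 205 and 423 CPM in classical monocytes, 207 and 288 in C1q macrophages, 142 and 220 in microglia, 172 and 127 in Mmp12 macrophages and 79.7 and 96.7 in Arg1 macrophages. Monocytes and C1q macrophages were level in library 1 and apart in library 2, and neither overlapped with the dendritic cells, at 4.02 to 46.5. Against the mean of the other classes Ccl7 was higher in classical monocytes (2.70 ± 0.23, adjusted p = 1.58e-08) and in C1q macrophages (2.26 ± 0.23, adjusted p = 2.37e-07). In Arg1 macrophages it did not pass (0.55 ± 0.27, adjusted p = 0.105).

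Ccl12 had another leading class, the microglia. It stood there at 444 and 1379 CPM, against 79.9 and 160 in C1q macrophages, 128 and 88.0 in Mmp12 macrophages, 68.5 and 121 in classical monocytes and 15.3 and 34.4 in Arg1 macrophages. Both microglia values lay above all values of the other phagocyte classes. The difference from their mean was 4.33 ± 0.29 (adjusted p = 2.59e-10), and microglia, with 34.3% and 59.0% of the Ccl12 UMIs of their libraries, were the class with the largest part of them. After thinning, 24.7% and 51.2% of microglia held a Ccl12 UMI, against 6.34% and 9.73% of C1q macrophages and none of the 179 and 46 B cells. Unthinned, the shares in microglia were 61.3% and 86.1%. Ccl12 was lower than the mean of the others in Arg1 macrophages (-1.43 ± 0.44, adjusted p = 0.0126), a direction that turned when classes were taken from clusters (0.38, adjusted p = 0.148).

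Ccl8, the CCR8 ligand, was rare. Microglia held 27.6 and 8.24 CPM, Mmp12 macrophages 22.3 and 4.02, C1q macrophages 10.3 and 4.44, and Arg1 macrophages and classical monocytes under 2. The differences from the other classes were 2.69 ± 0.53 in microglia (adjusted p = 3.82e-04) and 2.10 ± 0.55 in Mmp12 macrophages (adjusted p = 0.00561). A higher value in mature dendritic cells (2.78 ± 0.78, adjusted p = 0.0059) came from 50 UMIs of 1 cell of library 1, while library 2 had 0 UMIs in 202 such cells.

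Ccl24, the eosinophil attractant eotaxin-2, was highest in the C1q macrophages. It stood at 318 and 341 CPM there, 155 and 90.7 in Arg1 macrophages, 183 and 24.9 in Mmp12 macrophages, 117 and 59.0 in classical monocytes and 26.9 and 9.63 in microglia. C1q macrophages did not overlap with any other phagocyte class and held 53.4% and 71.6% of all Ccl24 UMIs, with 26.8% and 26.5% of all UMIs. Their difference from the other classes was 4.29 ± 0.32 (adjusted p = 4.97e-09), followed by Arg1 macrophages at 2.48 ± 0.37 (adjusted p = 1.64e-05). Microglia, which carry C1q genes as well, did not pass (-0.91 ± 0.67, adjusted p = 0.276). B cells of library 1 had 18 Ccl24 UMIs (42.4 CPM), of which 13 were in 1 cell, and those of library 2 had 0. Transcripts of Ccr3, the receptor of this ligand, numbered 0 to 9 in each of the monocyte, C1q macrophage, microglia and neutrophil classes of the CD45+ libraries.

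Cx3cl1 was highest in dendritic cells. Mature dendritic cells held 51.1 and 76.4 CPM, Mgl2 dendritic cells 7.81 and 14.7, type 1 dendritic cells 2.54 and 2.41, and each other phagocyte class under 2. Against the other classes it was higher in mature dendritic cells (6.17 ± 0.28, adjusted p = 1.66e-12) and in Mgl2 dendritic cells (3.42 ± 0.33, adjusted p = 3.43e-07). Cx3cl1 passed the filter on low counts through these dendritic classes, so its passing the test adds nothing to their levels. The mature dendritic cells held 50.9% and 54.3% of only 106 and 245 Cx3cl1 UMIs per library. Its receptor gene Cx3cr1 stood at 1189 and 1022 CPM in microglia.

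The receptor gene Ccr2 was highest in classical monocytes, with 460 and 473 CPM, and next in Arg1 macrophages, with 310 and 312. Mmp12 macrophages had 194 and 242, Mgl2 dendritic cells 196 and 190, C1q macrophages 171 and 178, T or NK cells 151 and 166, neutrophils 79.7 and 71.8, microglia 53.2 and 32.1 and mature dendritic cells 18.0 and 5.17. Of the Ccr2 UMIs of neutrophils, 70.1% and 77.9% lay in cells that also carried macrophage genes, described below. The libraries differed little, and monocytes and Arg1 macrophages each stood apart from all classes below them, while Mmp12 macrophages and Mgl2 dendritic cells overlapped. Ccr2 exceeded the mean of the other classes by 2.50 ± 0.11 in monocytes (adjusted p = 4.14e-12), 1.71 ± 0.12 in Arg1 macrophages (adjusted p = 1.13e-09) and 1.14 ± 0.13 in Mmp12 macrophages (adjusted p = 8.22e-07). It was lower in microglia (-1.75 ± 0.17, adjusted p = 8.55e-08), the brain-resident macrophages, and in mature dendritic cells (-4.05 ± 0.30, adjusted p = 8.69e-10). After thinning, 31.5% and 33.1% of monocytes held a Ccr2 UMI (73.3% and 74.6% unthinned), against 27.1% and 24.2% of Arg1 macrophages, 4.78% and 2.89% of microglia, and 0 of 179 and 1 of 46 B cells.

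**Figure D1:**
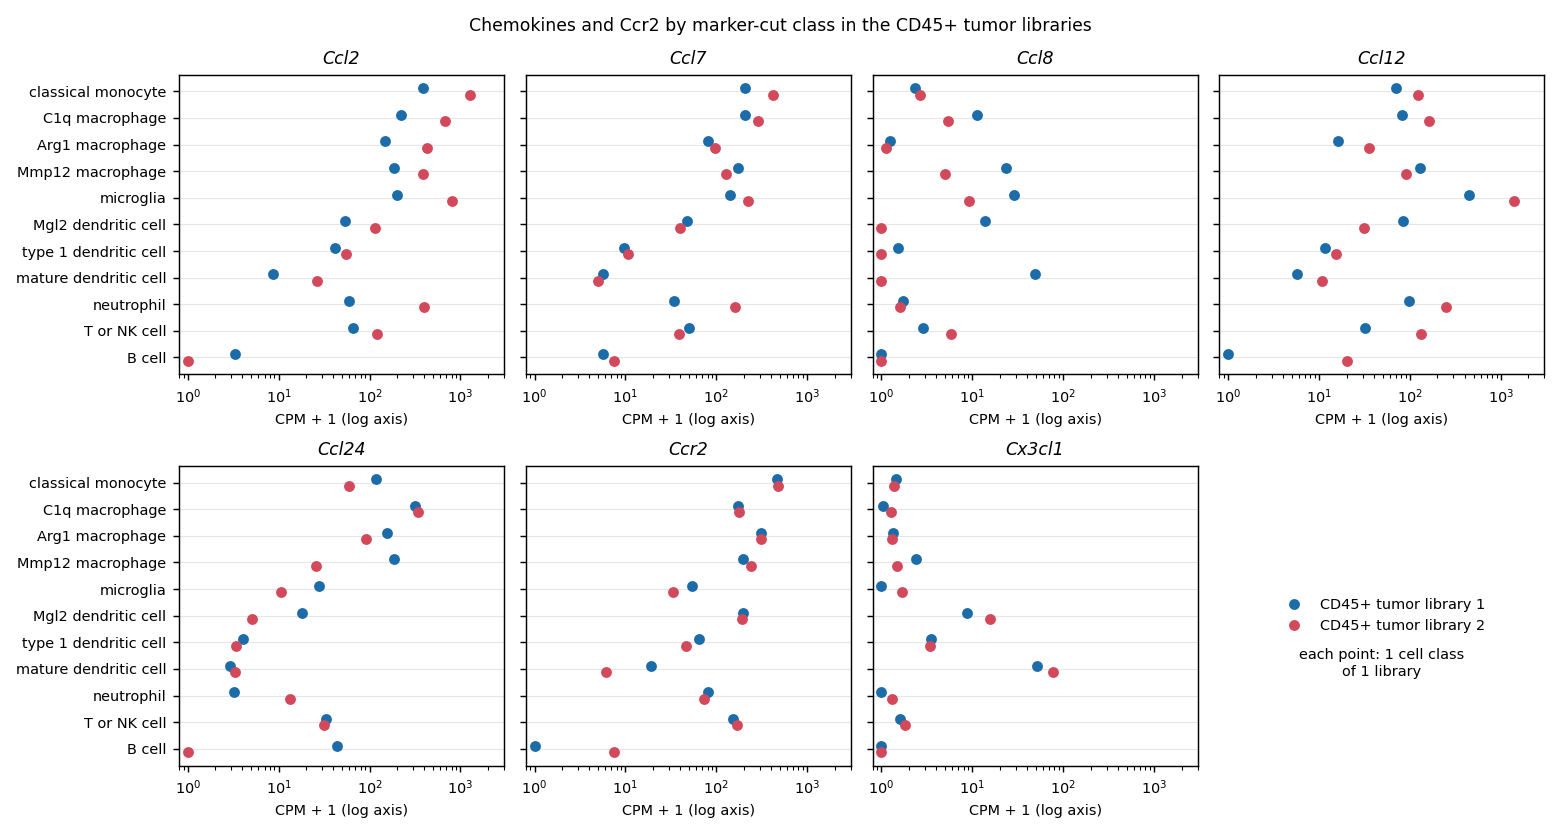
CPM plus 1 (log axis) of each of the 7 genes by marker-cut class, 1 point for each CD45+ tumor library. Ccl2 and Ccr2 are highest in classical monocytes, Ccl12 in microglia (444 and 1379), Ccl24 in C1q macrophages (318 and 341) and Cx3cl1 in mature dendritic cells (51.1 and 76.4).

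Counts of members are read against the share of all genes called in the same contrast. C1q macrophages had 6 members higher, as were 24.4% of genes, and 1 lower, as were 16.7%, with 41% called in all. Classical monocytes had 4 higher (22.5% of genes) and 1 lower (17.4%), with 39.9% of genes called in all. Microglia had 4 higher (26.8%) and 2 lower (22.4%), with 49.2% called. Mmp12 macrophages had 6 higher (21.9%) and 0 lower (14.8%), with 36.7% called, and Arg1 macrophages 3 higher (26.7%) and 3 lower (19.6%), with 46.3% called. Type 1 dendritic cells had 0 higher (19.5%) and 5 lower (17.4%), with 36.8% called. Mature dendritic cells had 2 higher (23.8%) and 5 lower (27.6%), with 51.4% called, and Mgl2 dendritic cells 2 higher (14.9%) and 1 lower (8.99%), with 23.9% called. The median difference of the 7 members was 1.498 in C1q macrophages (0.06 over all genes), 2.01 in monocytes, 1.52 in microglia (0.04 over all genes) and -4.03 in mature dendritic cells (-0.13 over all genes). In each contrast the other 7 phagocyte classes entered the mean with the same weight. Dendritic classes, which held little Ccl2, Ccl7 and Ccl24, were among them, so a class of middling level could be called higher. Mmp12 macrophages, with 6 members higher, led for none of the 7 in either library. Ccr2 was called higher in C1q macrophages (0.78), though monocytes, Arg1 and Mmp12 macrophages and Mgl2 dendritic cells held more. The genes were picked by name with earlier results of these data known, so these counts are a description.

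Within C1q macrophages Ccl2, Ccl7 and Ccl24 went with Pf4, a platelet-factor chemokine gene also made by tissue macrophages. In cells with Pf4 at 0.2% of UMIs or more (646 and 693 cells), Ccl24 stood at 744 and 833 CPM, against 48.0 and 6.4 in the 337 and 234 cells with no Pf4 UMI. Ccl2 stood at 392 and 1195 against 88.8 and 248, and Ccl7 at 392 and 555 against 47.2 and 66.9. Ccr2 ran the other way, at 138 and 111 with high Pf4 and 221 and 362 without. Ccl12 showed no common direction, with 95.8 and 144 against 81.5 and 185. Cells without Pf4 were shallower (median 6763 and 11496 UMIs, against 9900 and 14802), and the part of depth in these differences was not tested.

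Across the monocyte and macrophage classes pooled, the level of Ccr2 followed the monocyte genes Ly6c2, Plac8 and Ms4a4c, which also cut the monocyte class. It was 217 and 227 CPM in cells with none of these UMIs and 518 and 569 where they made up 0.3% or more. Ccl2 went the same way, from 145 and 420 to 487 and 1382. Ccl24 was lower at that end, at 39.0 and 31.5 against 238 and 205, though in library 1 its highest value, 305.5, was in the middle of the range (0.05% to 0.1%). Pf4 is a marker of the C1q class and the monocyte genes cut the monocyte class, so these levels are a description without a test.

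**Figure D2:**
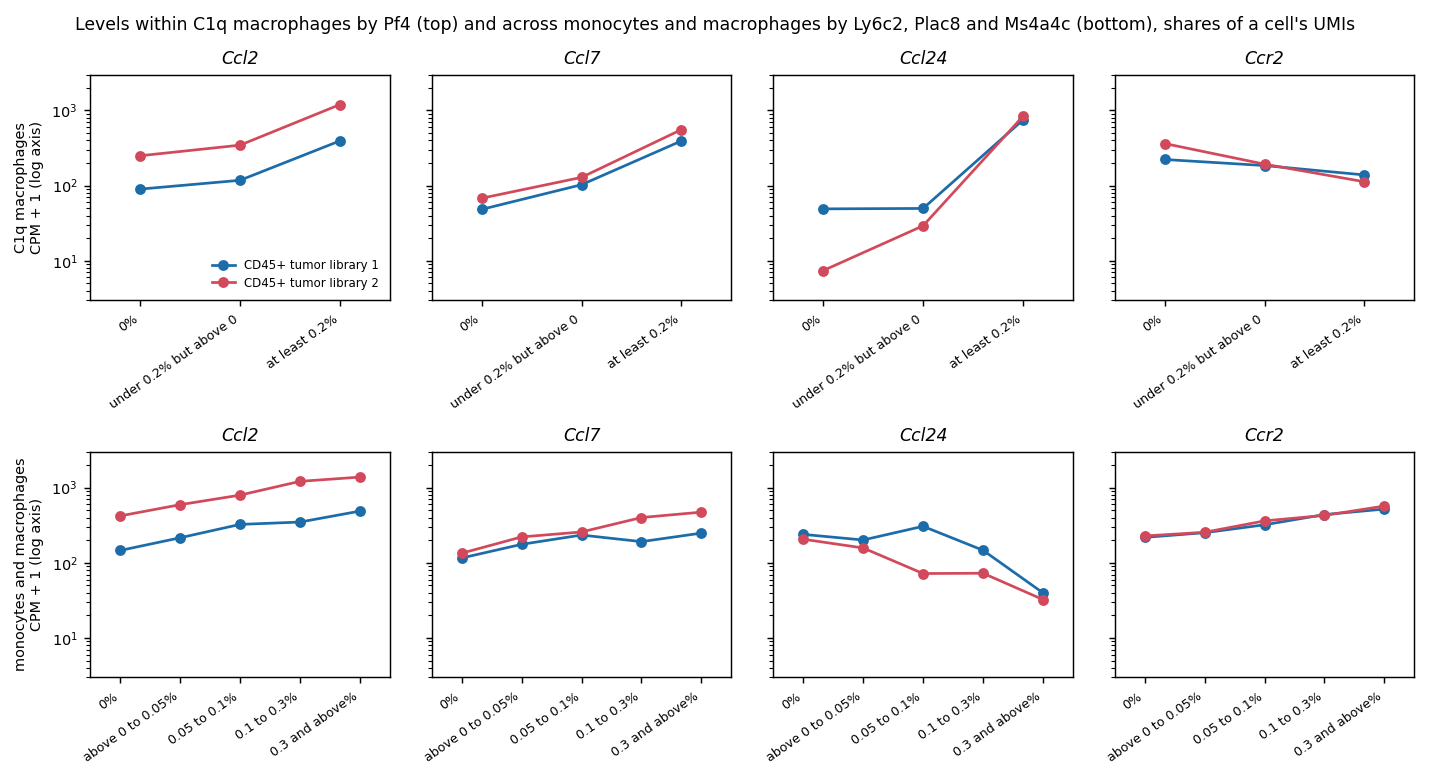
CPM plus 1 (log axis) of Ccl2, Ccl7, Ccl24 and Ccr2 in C1q macrophages by the share of Pf4 (top) and in monocytes and macrophages by the share of Ly6c2, Plac8 and Ms4a4c (bottom), 1 line for each CD45+ tumor library. Ccl24 climbs with Pf4, from 48.0 and 6.4 to 744 and 833, and is lowest at the monocyte end, where Ccr2 and Ccl2 are highest.

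Ccl2 and Ccl7, neighbours in the genome and ligands of the same receptor, were seen in the same cells. Among thinned classical monocytes, 32.0% and 35.9% of those with a Ccl2 UMI held a Ccl7 UMI, against 5.87% and 3.84% of those without. In C1q macrophages the shares were 40.4% and 37.1% against 8.29% and 10.0%. The share was higher with Ccl2 than without in 10 of 10 combinations of class and library, with medians of 27.6% and 6.29%. Ccl12 was likewise more frequent with Ccl2 in 10 of 10 combinations. This was not particular to neighbours or CCR2 ligands. Ccl24, on chromosome 5 and a ligand of CCR3, was more frequent with Ccl2 in 9 of 10, with medians of 8.3% and 3.1%. Ccl8 was not: it was more frequent with Ccl2 in 2 of 10, at shares of at most 1.22%.

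The ligand Ccl2 and its receptor gene were not seen together in the same way. In classical monocytes 33.5% and 33.0% of cells with Ccl2 held a Ccr2 UMI, against 31.0% and 33.2% of cells without. In C1q macrophages the shares were 9.20% and 10.7% against 14.3% and 14.4%, and in microglia 1.75% and 1.19% against 5.19% and 3.79%. Ccr2 was more frequent with Ccl2 in 1 of 10 combinations. Cells of 1 library share their droplets and free RNA, so these shares have no test.

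**Figure D3:**
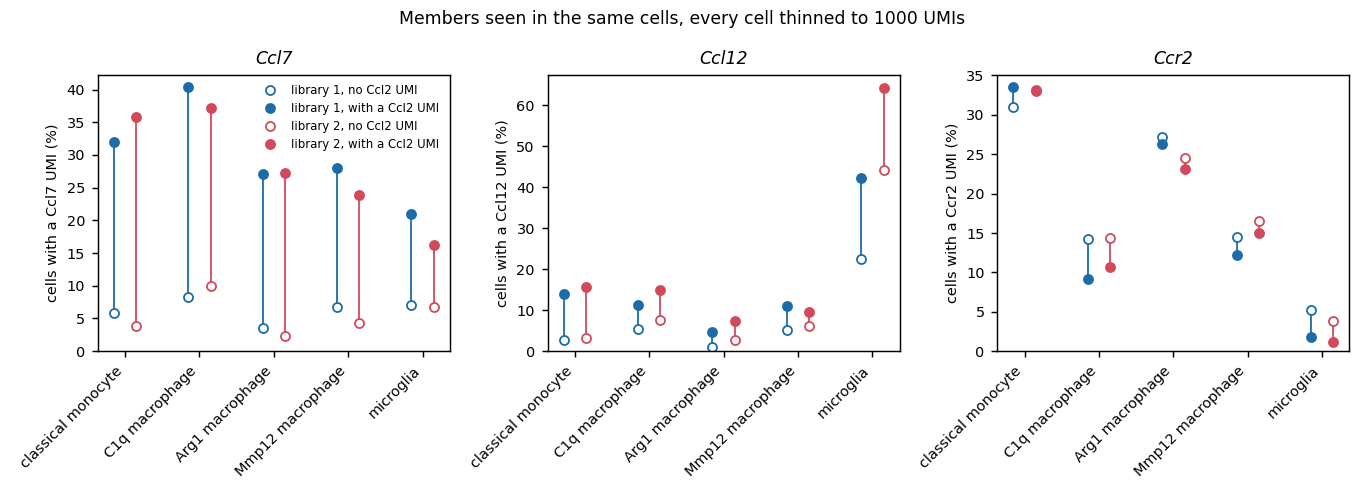
Percent of cells, each thinned to 1000 UMIs, that hold a UMI of Ccl7, Ccl12 or Ccr2 among cells with (filled) and without (open) a Ccl2 UMI, by class and CD45+ tumor library. Ccl7 and Ccl12 lie higher with Ccl2 in all 10 pairs of points, Ccr2 in 1 of 10.

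The sorted tumor libraries, meant to hold neutrophils, also held 43 to 159 cells a library of the monocyte, C1q macrophage and microglia classes. Ccl12 again stood highest in microglia, at 1039 and 1345 CPM, against 223 and 415 in C1q macrophages and 54.4 and 63.5 in monocytes. Ccr2 again stood highest in monocytes, at 295 and 544, followed by C1q macrophages at 116 and 139, and lowest in microglia at 21.8 and 4.10. Ccl2 was at 1050 and 1184 in monocytes and at 653 and 1548 in C1q macrophages, which overlap. Ccl24 was at 77.0 and 397 in C1q macrophages and at 125 and 3.74 in monocytes, so its order differed between the libraries. Cx3cl1 had 0 UMIs in all 3 classes. The 94 and 108 cells that met the Arg1 macrophage cut there are not set beside those of the CD45+ libraries, because they differed in other measures. Their median share of C1q macrophage markers was 0.0292% and 0.0276%, against 0.480% and 0.502%, and that of mitochondrial UMIs 0.279% and 0.337%, against 1.503% and 1.81% in the CD45+ libraries and 0.251% and 0.214% in the sorted tumor neutrophils.

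**Figure D4:**
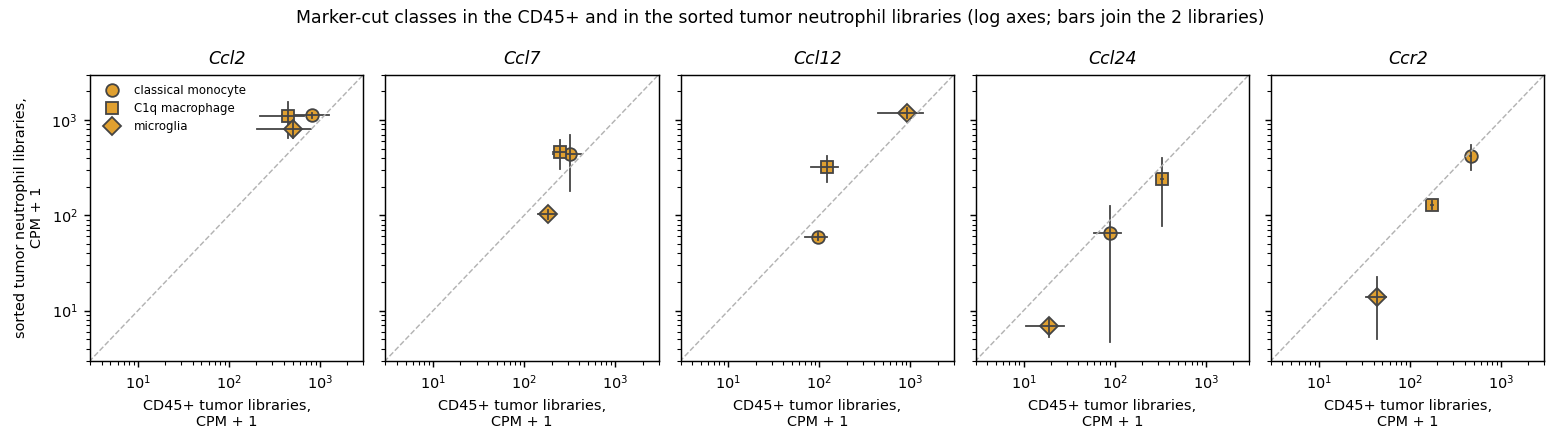
CPM plus 1 (log axes) of 5 of the genes in 3 marker-cut classes, the mean of the CD45+ tumor libraries across and of the sorted tumor neutrophil libraries up; bars join the libraries and the dashed line marks equal levels. Microglia lie highest for Ccl12 and lowest for Ccr2 on both axes.

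Neutrophils sorted from tumor held more Ccl2, Ccl7 and Ccl12 than neutrophils sorted from blood, and most of these UMIs came from a few cells that also carried macrophage genes. Ccl2 stood at 1.09 and 3.50 CPM in the 2951 and 5006 blood neutrophils (14 and 68 UMIs) and at 101 and 90.6 in the 3347 and 5541 tumor neutrophils (1565 and 2207 UMIs). The groups did not overlap, and the difference was 5.36 ± 0.34 on the log2 scale (SE, n = 2 and 2; adjusted p = 1.27e-05, edgeR's quasi-likelihood test). The ratio of the summed counts was 37.3 (95% counting interval 29.96 to 47.0, which covers counting error only). After thinning, 1.85% and 1.72% of tumor neutrophils held a Ccl2 UMI (median 3904 and 3872 UMIs before thinning), against 0.106% and 0.248% of blood neutrophils (median 4253 and 3952 UMIs).

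Ccl12 had 0 UMIs in both blood libraries and stood at 176 and 128 CPM in tumor neutrophils, at least 1579-fold higher against 3 counts over the blood group. Ccl7 also had 0 in blood and stood at 12.4 and 24.4 in tumor neutrophils, at least 213-fold higher. Both passed the test (adjusted p = 1.75e-06 for Ccl12 and 9.11e-05 for Ccl7), having entered it only through the tumor group. Ccl8 had 0 and 0 UMIs in blood and 8 and 9 in tumor, and Cx3cl1 had 0 and 0 against 1 and 1, and neither was tested.

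Ccr2, a receptor known from monocytes rather than resting neutrophils, did not differ beyond the spread of the blood libraries. It stood at 0.389 and 13.5 CPM in blood against 16.2 and 9.32 in tumor, and the groups overlapped (0.86 ± 0.86, adjusted p = 0.409). Blood library 2 decided this value: without it the difference was 4.997 (adjusted p = 2.82e-16), with its lone partner assumed to vary like the tumor group, and 5 of the 5006 cells of that library held 50% of its 263 Ccr2 UMIs. Ccl24 also overlapped, at 1.40 and 4.73 in blood and 3.68 and 4.76 in tumor (0.50 ± 0.47, adjusted p = 0.377). All 18 Ccl24 UMIs of blood library 1 and 81 of the 92 of blood library 2 were in 1 cell each. Without blood library 2, Ccl24 passed as higher in tumor (1.62, adjusted p = 0.00176). Of the 7 members 5 were tested and 3 called, all higher, where 64% of 13634 genes were called, 33.3% as higher and 30.7% as lower. Ccl7 and Ccl12, at 0 in blood, could only be called higher. Ccl2 was the only called member with UMIs in both groups, so the count is a description.

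The tumor neutrophils with these UMIs were few. Of the Ccl12 UMIs 50% lay in 13 of 3347 and 18 of 5541 cells, and of the Ccl2 UMIs in 12 and 17 cells. Neutrophils in which C1qa, C1qb, C1qc, Ms4a7, Mrc1 and Apoe together made up 0.3% of UMIs or more were 6.81% and 4.98% of the sorted tumor neutrophils (228 and 276 cells). These held 94.5% and 89.9% of the Ccl12 UMIs, 70.7% and 84.6% of the Ccl2 UMIs, 68.9% and 91.8% of the Ccl7 UMIs and 65.7% and 70.0% of the Ccr2 UMIs. Their Ccl12 level was 871 and 859 CPM and their Ccl2 level 374 and 572. They had less of the neutrophil genes, with 1530 and 2156 CPM of Retnlg against 4851 and 8440 in the other neutrophils, and a median of 1.91% and 2.02% of UMIs from S100a8 and S100a9 against 5.30% and 6.07%. In the whole sorted tumor neutrophils the 10 C1q macrophage markers stood at a median of 14.8% and 12.7%, and the 8 microglia markers at 29.7% and 16.5%, of their level in the phagocytes of the same libraries, with none at 0. The members stood at a median of 11.8% and 11.7% of it, leaving out Cx3cl1, which had no UMI in those phagocytes. They ranged from 5.39% to 35.4% in library 1 and from 5.14% to 15.6% in library 2, with Ccl12 highest in both.

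Among the remaining neutrophils, with these 6 markers under 0.3% of UMIs, the tumor levels were lower than in all neutrophils and still above blood for Ccl2, Ccl7 and Ccl12. Ccl2 was at 36.5 and 16.1 CPM in tumor, and its difference from blood was 4.07 ± 0.44 (adjusted p = 1.75e-04), a ratio of 11.99 (9.27 to 15.8). Ccl12 was at 11.9 and 14.9, with 463 UMIs against 0 in blood, at least 146-fold higher. Ccl7 was at 4.78 and 2.32, with 109 UMIs against 0, at least 34.4-fold higher. Ccl7 and Ccl12, at 0 in blood, enter the test only through the tumor group, so their passing it adds nothing. Ccr2 did not pass (0.54 ± 0.90, adjusted p = 0.632). In tumor neutrophils with fewer than 2 UMIs of these markers (2474 and 4092 cells) Ccl2 was at 12.3 and 13.5 and Ccl12 at 5.15 and 7.20. These cells were not free of macrophage RNA, with 109 and 214 UMIs of C1qa. C1qa was at 36.6 and 41.0 CPM in the tumor neutrophils under 0.3%, against 1.95 and 0.525 in such neutrophils of blood. The part of macrophage RNA in what was left was not tested.

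**Figure D5:**
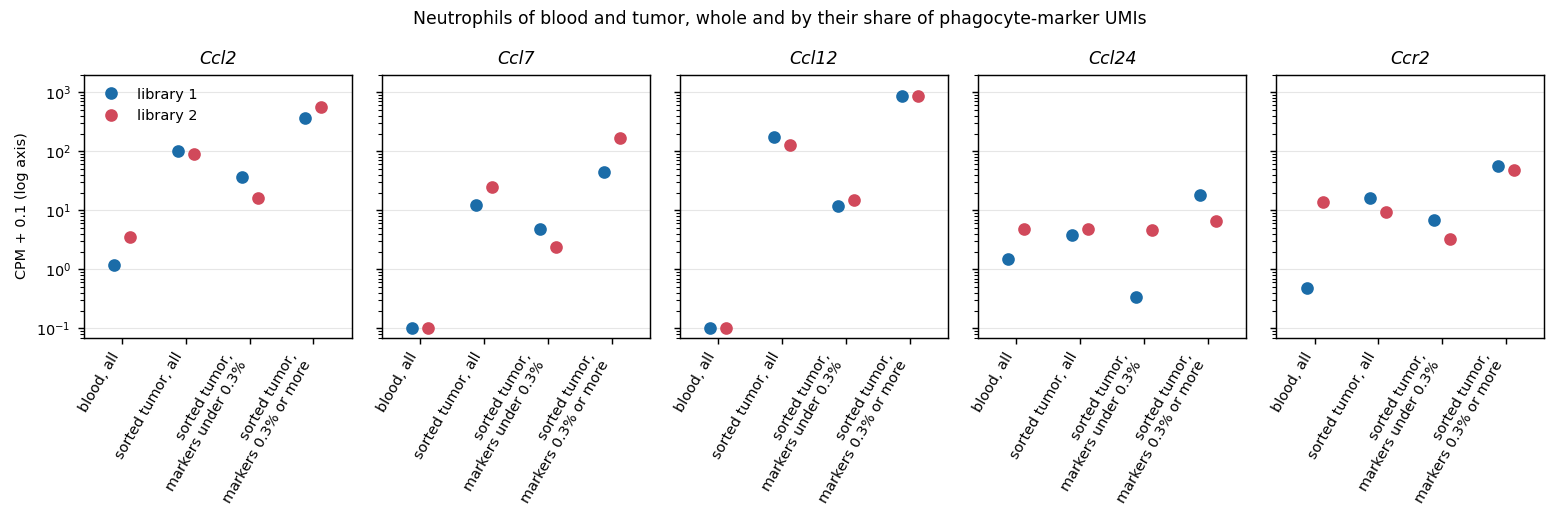
CPM plus 0.1 (log axis) of 5 of the genes in blood neutrophils, in sorted tumor neutrophils, and in the latter split at 0.3% of UMIs from 6 macrophage markers, 1 point for each library. Ccl2, Ccl7 and Ccl12 are above both blood libraries in every tumor column, and highest in the cells with more markers, such as 871 and 859 for Ccl12.

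Neutrophils of the CD45+ tumor libraries also held the CCR2 ligands, with Ccl2 at 58.1 and 398 CPM, Ccl7 at 33.5 and 158, Ccl12 at 95.3 and 250 and Ccr2 at 79.7 and 71.8. Taken whole, the mean of the 8 phagocyte classes was lower than neutrophils for Ccl2 (-0.63 ± 0.22, adjusted p = 0.0211), Ccl7 (-1.04 ± 0.31, adjusted p = 0.00817) and Ccl12 (-1.91 ± 0.39, adjusted p = 3.99e-04), so 3 members were lower and 0 higher, where 29.7% of genes were lower, 19.8% higher and 49.5% called in all. The 3 dendritic classes, which hold little of these genes, enter that mean with the same weight as the others. Pooled over all their cells, phagocytes held more than neutrophils of Ccl2 (193 and 565 CPM) and of Ccl7 (141 and 188 CPM) in both libraries, and less of Ccl12 (83.9 and 214 CPM).

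This direction turned with the cells counted. With neutrophils under 0.3% of the 6 markers (490 of 559 and 659 of 809 cells), phagocytes were higher for Ccl2 (1.18, adjusted p = 0.00115) and Ccr2 (1.36, adjusted p = 1.08e-04), and Ccl7 (0.99, adjusted p = 0.0611) and Ccl12 (0.89, adjusted p = 0.318) did not pass. In library 1 alone, without library 2, Ccl2 and Ccl7 were also higher in phagocytes, by 0.36 and 0.46. The 69 and 150 neutrophils with more marker UMIs held 79.5% and 87.6% of the Ccl2 UMIs and 89.8% and 93.5% of the Ccl12 UMIs of neutrophils. They also held 70.1% and 77.9% of the Ccr2 UMIs, and Ccr2 stood at 35.3 and 28.7 CPM in the neutrophils under 0.3%.

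The 32 other genes listed for this pathway were receptors, other ligands, proteases, signalling proteins and growth factors. In sorted tumor against blood neutrophils 13 of the 25 tested rose, as did 33.3% of all genes, and 7 fell, as did 30.7%, with a median of 0.61 against 0.02 over all genes. Those with the highest difference were Ccl5 (10.44), Ccl3 (8.58) and Ccl4 (7.86), chemokines made by many leukocytes. Those with the lowest were Rac2 (-1.79), Pik3cg (-1.44) and Gnai2 (-1.28), which act in signalling below chemokine receptors. The receptor gene Cx3cr1 rose by 3.95, from 14.1 and 16.3 CPM in blood to 276.5 and 178.3 in tumor. It stood at 1189 and 1022 in microglia of the CD45+ libraries. All neutrophils by the S100a8 and S100a9 rule entered these differences, with the cells that carried macrophage markers among them. The part of those cells in the rises was not tested.

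In the class contrasts the share of all genes called in the same direction stands in brackets after each count. Classical monocytes had 15 of 26 list genes higher (22.5%) and 2 lower (17.4%) than the other phagocyte classes. Among the highest were Ccl9 (1.72) and Ccr1 (1.25), and the lower ones were Pik3cg (-0.37) and Arrb2 (-0.29). Microglia had 12 higher (26.8%), led by Cx3cr1 (3.91), Csf1 (3.77) and Ccl4 (2.80), and 7 lower (22.4%), led by Dpp4 (-3.97), the protease that trims chemokines, Ccl6 (-1.12) and Csf2rb (-1.09). C1q macrophages had 11 higher (24.4%) and 9 lower (16.7%), with Ccl6 at 2.01 and Ccl9 at 1.96 as the highest and Dpp4 at -3.58 as the lowest. Mature dendritic cells had 10 higher (23.8%), led by Ccl5 (5.53) and Dpp4 (4.93), and 14 lower (27.6%), led by Ccl6 (-4.32). In the other classes the list split as 10 higher (26.7%) and 11 lower (19.6%) in Arg1 macrophages, 11 (21.9%) and 8 (14.8%) in Mmp12 macrophages, 7 (14.9%) and 5 (8.99%) in Mgl2 dendritic cells and 7 (19.5%) and 12 (17.4%) in type 1 dendritic cells. Phagocytes against neutrophils of the same libraries had 3 higher (19.8%) and 16 lower (29.7%), the lowest being Ccl3 (-4.27), Ccl4 (-3.74) and Csf1 (-3.69).

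Over 22 sums, of 11 classes in each of the 2 CD45+ libraries, the genes whose log levels were most like a member's are named as a description. Classes of 1 library share its depth and droplets. Ccl2 was most like Cebpa (Pearson r = 0.966) and Rab5if (0.951), and Ccl7 most like C3ar1 (0.947) and Sgk1 (0.945). Ccl12 was most like C1qc (0.946), C1qb (0.923) and Dtx4 (0.922), and Ccl8 most like Vcam1 (0.826). C1qc and C1qb are among the markers that cut the C1q macrophage class. Ccl24 was most like Ethe1 (0.872), Ccr2 most like Dpep2 (ENSMUSG00000053687, 0.951) and Sirpb1c (0.926), and Cx3cl1 most like Syn3 (0.932) and Ccl22 (0.927), a marker that cut the mature dendritic class.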

How the data were processed

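Single-cell libraries were made with 10x Chromium 3' chemistry, with 20000 cells loaded per lane, per the labels' protocols. The deposited matrices hold UMI counts per gene and barcode, all whole numbers. The authors ran Cell Ranger 7.1.0 with mm10 (per the submitters' processing notes), and which annotation they took was not given in the sources used here. Barcodes under 200 genes or above 10% of mitochondrial UMIs were dropped. Scrublet's automatic threshold marked 0 to 4 cells a library, so the cells with the highest doublet scores were removed at a rate of 0.8% per 1000 cells (78 to 700 cells a library). The classes were cut by shares of marker UMIs, with cuts set after marker levels had been seen and without the members. Members and lists were chosen with earlier results of these data known.

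UMI counts were summed per library and class, since cells are not replicates. Sums were tested with edgeR 4.0.16 (R 4.3.3) by glmQLFit and glmQLFTest with TMM scaling, filterByExpr and Benjamini-Hochberg adjustment over all genes, with a threshold of 0.05. Classes of 1 library share it, so the class comparisons had the library as a block; blood against tumor had no block. CPM values are the unscaled sums, and log2 differences come from the fit. A class was set against the mean of the other phagocyte classes. Shares of cells have exact Clopper-Pearson 95% intervals in the tables and were thinned to 1000 UMIs per cell, leaving out shallower cells, 32 to 50 of the neutrophils of a CD45+ library and 99 to 572 of those of a sorted one. Replicate libraries differed beyond counting noise (chi-square of 5.27 to 44.3 per degree of freedom), so none was counted as a repeat of another.

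The genes named are the 7 members, of 32 further pathway genes those with the 3 highest and 3 lowest changes past the threshold (1 result is not reported here), and the genes most like each member with a mean of at least 5 CPM; the like-pattern genes were compared by Pearson correlation over 10130 genes. The steps were tested on simulated data. Alternatives were the replicate block, DESeq2 1.42.0 with its size factors, no filter on low counts, leaving out each library, stricter cuts, Leiden clusters (scanpy 1.11.5), doublets kept and, chosen after seeing the data, shared barcodes kept and neutrophils with few macrophage marker UMIs.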

Additional observations from a re-analysis of the deposited data

Results flagged for a closer look

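Ccl2 appeared in a class that no comparison used. The 13 and 16 mast cells or basophils of the CD45+ tumor libraries held 399 CPM in library 1 and 639 in library 2, from 29 and 68 UMIs, while the B cells of the same libraries held 2.35 and 0. In library 1 this was above the level of classical monocytes, the phagocyte class with the most Ccl2, and in library 2 below it. These are few cells, and the level has no test. With 2 libraries a group, no library could be tested as standing apart from its group.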

How the results depend on the processing

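Of the 7 members, 3 were called in sorted tumor against blood neutrophils; the number was 5 with no filter on low counts and 3 to 5 when a library was left out, with Ccl24 and Ccr2 added without blood library 2. With the replicate block it was 4, Ccr2 passing (1.34, adjusted p = 0.00605); same-numbered deviations of blood and tumor correlated at 0.0990, and nothing in the labels ties the numbers to shared mice. In phagocytes against neutrophils 3 members were called, 6 with no filter on low counts, 1 with stricter cuts, and 2 with no replicate block. The class comparisons called 45 of 56 member tests, 32 with no replicate block and 40 to 51 in the other settings.

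Direction turned for Ccl12 in Arg1 macrophages with Leiden clusters (0.38), for Ccl8 in mature dendritic cells with Leiden clusters (-7.44), with stricter cuts (-7.29) and without replicate 1 (-2.45, against 3.25 without replicate 2), for phagocytes against neutrophils without replicate 2 (Ccl2 0.36 and Ccl7 0.46, against -0.99 and -1.53 without replicate 1), and for neutrophils under 0.3% of macrophage markers (Ccl2 1.18, Ccl7 0.99, Ccl12 0.89). That last setting removes the cells that held most of the UMIs; for the others, Ccl8 aside, the cause was not tested. The class with the highest share of cells with a UMI stayed first for 6 or 7 of the 7 members without thinning, with doublets kept, and without replicate 1 or 2. With 2 libraries a group, differences between classes that hold few UMIs, as for Ccl8 and Cx3cl1 outside their leading classes, were at the limit of the depth.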
